A study of Mus musculus with 12 samples.

Results

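The genes described here encode the extracellular matrix, the integrin receptors that cells hold it with and the metalloproteinases that cut both. A gene was taken where its symbol in any of the 4 deposited tables began like that of a collagen (Col), a laminin chain (Lama, Lamb, Lamc), an integrin chain (Itga, Itgb), a gene of the ADAM, ADAMTS or ADAMTSL families (Adam), a matrix metalloproteinase (Mmp), a lysyl oxidase (Lox) or a fibrillin (Fbn). This gave 36 of the 6097 genes with a listed m6A peak, namely 8 collagen, 1 laminin, 8 integrin, 4 ADAM, 7 ADAMTS, 2 ADAMTSL, 3 MMP, 1 lysyl oxidase and 2 fibrillin genes. The reference annotation holds 175 protein-coding genes of these names, so 20.6% of them had a listed peak in at least 1 library, against 23.8% of all 21990 protein-coding genes. All 36 names belong to genes of these families.

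The cells were mouse embryonic stem cells of the J1 line, grown with LIF on irradiated embryonic fibroblast feeders. They carried a lentiviral shRNA against Mettl14, an shRNA against Mettl3 or a scramble shRNA, and all 3 groups went through lentiviral infection and puromycin selection. Fragmented RNA was pulled down with an antibody to N6-methyladenosine (m6A), which gave 2 IP libraries for each group and 6 in all. The 6 libraries made without antibody were not analysed here. A peak is a stretch of transcript where IP reads exceeded the library's own control, and its fold enrichment is that excess as a ratio. Set 1 and set 2 name the pairs of tables that share a scramble library, and no label ties a replicate number to a set. Nothing states that libraries of a group came from separate cultures, so the p-values below measure only the spread between these libraries, which may be technical. The tables give no expression values. Neither Mettl14 nor Mettl3 had a listed peak in any library, so the tables hold no check of the knockdowns.

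As background, METTL3 and METTL14 form the heterodimer that writes m6A on messenger RNA, mostly at GGAC and related motifs, in long internal exons, near stop codons and in 3′ UTRs. METTL3 is the catalytic subunit and METTL14 helps to hold the RNA. Collagens, laminins and fibrillins are the fibres and sheets of the matrix, lysyl oxidases crosslink them, integrins are αβ receptor pairs that tie them to the cytoskeleton, and ADAM, ADAMTS and MMP enzymes shed surface proteins or cleave matrix. In embryonic stem cells integrins and laminin carry adhesion to the substrate, while feeder fibroblasts deposit much of the fibrillar matrix.

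Overlapping peaks of all libraries on the same strand were merged into 50 sites. Stretches around 1 motif match show what the peaks hold at the sites on which the results turn. The match is the one inside the peaks of most libraries, with GGACT taken before GGAC and then the one nearest the site's middle. In each stretch below it lay inside a peak of every library that had the site. They are given 5′ to 3′ from GENCODE M21 transcripts on GRCm38 (mm10), written as DNA, with the motif in capitals, 30 bases on each side in coding sequence and 12 in a 3′ UTR. A match is a description and not a mapped m6A base. The first group is sites present in both scramble libraries and in no knockdown library.
Col6a4 site 1, coding, chr9:106000800-106000864, minus strand: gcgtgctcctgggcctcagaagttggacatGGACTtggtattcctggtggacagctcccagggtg
Adam23 site 1, 3′ UTR, chr1:63593320-63593348, plus strand: cagcactcatctGGACTgtgttcttgttg
The next group is sites with the lowest knockdown enrichment relative to scramble.
Col27a1 site 1, coding, chr4:63224954-63225018, plus strand: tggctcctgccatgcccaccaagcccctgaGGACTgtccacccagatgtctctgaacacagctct
Loxl1 site 1, coding, chr9:58312530-58312593, minus strand: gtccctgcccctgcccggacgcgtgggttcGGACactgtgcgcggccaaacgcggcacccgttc
Adamts1 site 1, coding, chr16:85795616-85795679, minus strand: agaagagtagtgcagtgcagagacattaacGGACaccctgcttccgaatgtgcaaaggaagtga
Adamts15 site 1, 3′ UTR, chr9:30901842-30901870, minus strand: tccttcctccttGGACTgggcagggggaa
The last group is integrin sites listed in all 6 libraries (Itga3, Itga5, Itgb5) and the integrin site that differed between the knockdowns (Itga9). It also holds the coding site listed in both Mettl3 knockdown libraries and in no other library (Adamts8).
Itga3 site 1, 3′ UTR, chr11:95044918-95044946, minus strand: cacactgtgctgGGACTgacctggagcat
Itga5 site 1, 3′ UTR, chr15:103344902-103344930, minus strand: ggcatgccaacaGGACTtcccatctgact
Itgb5 site 1, 3′ UTR, chr16:33948792-33948820, plus strand: ctggcgtgccttGGACTtcctggaccatt
Itga9 site 1, 3′ UTR, chr9:118898586-118898614, plus strand: actcaggaacctGGACTtttgtgatgcca
Adamts8 site 2, coding, chr9:30961800-30961863, plus strand: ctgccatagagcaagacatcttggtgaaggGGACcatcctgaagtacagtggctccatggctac

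The motif content of these genes was close to that of all peaks. Windows of 201 nt centred on scramble peaks and read on the transcript strand held GGACT in 14 of 36 in set 1 (38.9%) and 7 of 22 in set 2 (31.8%), against 34.0% and 32.9% over all gene-assigned scramble peaks. GGAC, which also counts every GGACT, was in 86.1% and 86.4% of the windows of these genes and in 76.6% and 75.4% of all windows. Of the 50 sites, 24 had their middle in coding sequence, 7 within 100 nt of a stop codon, 11 elsewhere in a 3′ UTR, 4 in a 5′ UTR and 1 in a non-coding exon. The other 3 lay outside every exon of the gene they are listed under. They are Col14a1 site 1 and both sites of Itga1. The Itga1 sites fall in exons of Pelo, a gene that lies within Itga1 on the same strand, and the authors' tables list each of these peaks under both names. The Itga1 values below are therefore values of a stretch of Pelo exon that carries the Itga1 name by position.

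Fewer peaks were listed in these genes after either knockdown. The libraries held 23 and 14 peaks after Mettl14 knockdown and 22 and 18 after Mettl3 knockdown, against 39 and 24 in the scramble libraries, each pair in the order set 1 and set 2. Every knockdown library lay below both scramble libraries, although the highest knockdown library and the lowest scramble library differed by 1 peak. The mean was 19.25 ± 4.11 peaks in knockdown libraries (SD, n = 4) and 31.5 ± 10.6 in scramble libraries (SD, n = 2), a difference of -12.25 (two-sided exact permutation test, p = 0.0667, the smallest its 15 splits allow). For Mettl14 alone the difference was -13 and for Mettl3 alone -11.5 (two-sided exact permutation tests, n = 2 each, p = 0.333, the smallest that 6 splits allow). Over all genes, too, fewer peaks were listed: 5717 and 4367 were listed after Mettl14 knockdown and 5087 and 4577 after Mettl3 knockdown, against 7886 and 5438 in scramble libraries. As a share of all listed peaks these genes made up 0.402% and 0.321% after Mettl14 knockdown, 0.432% and 0.393% after Mettl3 knockdown, and 0.495% and 0.441% in scramble libraries (two-sided exact permutation test of both knockdowns together, n = 4 and 2, p = 0.133). The read depth of the libraries is not in the tables, and its part in these counts was not tested.

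**Figure D1:**
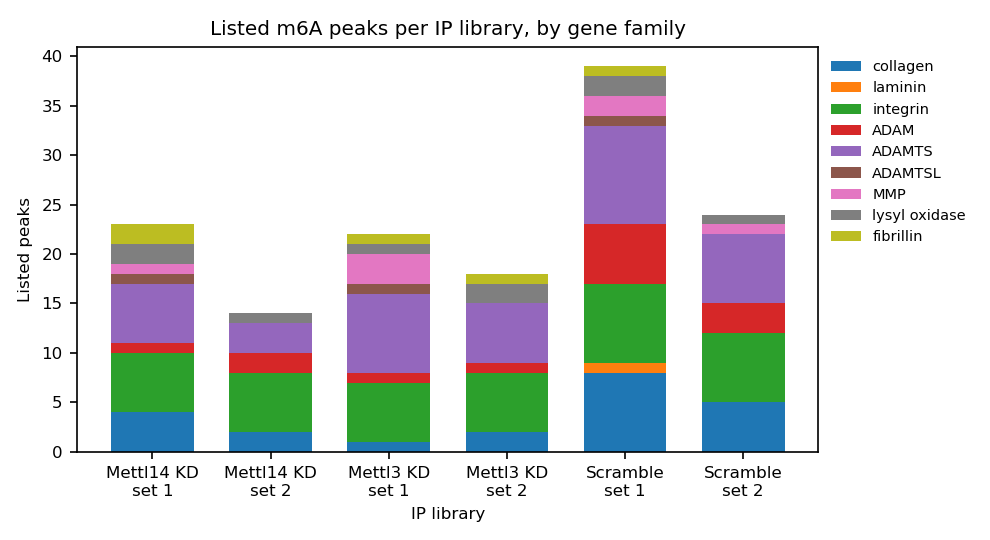
Number of listed m6A peaks in the 36 genes (vertical axis) in each of the 6 IP libraries (horizontal axis), stacked by family. The 4 knockdown libraries hold 14 to 23 peaks and the scramble libraries 39 and 24, and integrin peaks number 6 in every knockdown library against 8 and 7 in scramble.

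A scramble peak was called lost in a table where no knockdown peak overlapped it on the same strand by at least 1 nt, and a knockdown peak new where no scramble peak overlapped it. In set 1, 21 of 39 scramble peaks were lost after Mettl14 knockdown (53.8%, 95% Wilson interval 38.6 to 68.4), against 38.9% of all gene-assigned scramble peaks. In set 2, 12 of 24 were lost after Mettl14 knockdown (50.0%, 31.4 to 68.6), against 41.2% of all. After Mettl3 knockdown 21 of 39 were lost in set 1 (53.8%, 38.6 to 68.4), against 40.9% of all, and 10 of 24 in set 2 (41.7%, 24.5 to 61.2), against 36.6% of all. The share was above that of all peaks in each table, and the share of all peaks lay inside each interval. These intervals cover counting error only.

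**Figure D2:**
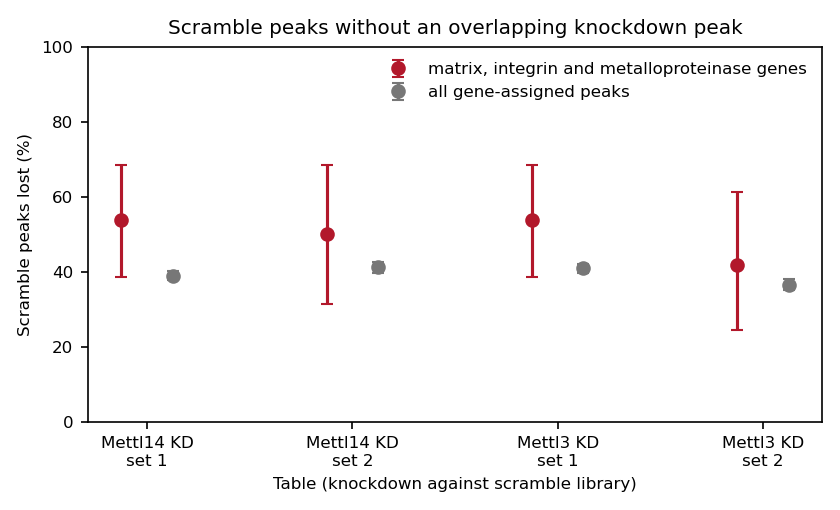
Share of scramble peaks with no overlapping knockdown peak (vertical axis, percent) in each of the 4 tables, for the 36 genes (red) and for all gene-assigned peaks (grey); bars are 95% Wilson intervals. The red points lie at 41.7 to 53.8% and the grey points at 36.6 to 41.2%, inside the red intervals.

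The share of new peaks was above that of all knockdown peaks in set 1 and below it in set 2. After Mettl14 knockdown 5 of 23 knockdown peaks were new in set 1 (21.7%) and 2 of 14 in set 2 (14.3%), against 15.2% and 26.5% of all. After Mettl3 knockdown 3 of 22 (13.6%) and 4 of 18 (22.2%) were new, against 10.8% and 23.7% of all. Of the 14 new peaks, 8 had 13 or fewer tags, a tag being a read counted in the peak.

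Peaks found in both libraries of a table were mostly less enriched in the knockdown. By the signed folds in the authors' deposited tables, 15 of 18 shared peaks were lower after Mettl14 knockdown in set 1 (55.5% of all shared peaks were) and 12 of 12 in set 2 (86.2% of all). After Mettl3 knockdown 11 of 19 were lower in set 1 (35.7% of all) and 12 of 14 in set 2 (93.9% of all). Without the authors' scaling constants, described next, the set 2 counts were 8 of 12 for Mettl14 and 10 of 14 for Mettl3. With the median over all shared peaks set to 0 they were 8 and 8. The shares of all shared peaks under these scalings are not given here, and 86.2% and 93.9% belong to the scaled folds. The median log2 change of knockdown over scramble in the authors' deposited tables was -0.65 and -1.09 for Mettl14 and -0.21 and -1.11 for Mettl3, against medians over all shared peaks of -0.07, -0.60, 0.20 and -0.91. The authors multiplied knockdown enrichments by 1 constant per table, 0.906 and 0.777 for Mettl14 and 1.00 and 0.609 for Mettl3, and nothing read here states how the constants were set. Without them the set 2 medians were -0.72 for Mettl14 and -0.39 for Mettl3, and those over all shared peaks -0.24 and -0.20. Each fold compares stretches called separately. In Mettl3 set 1, 7 of 8 higher and 6 of 11 lower knockdown peaks were narrower than the scramble peak, and in Mettl14 set 1, 2 of 3 higher and 7 of 15 lower ones were.

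**Figure D3:**
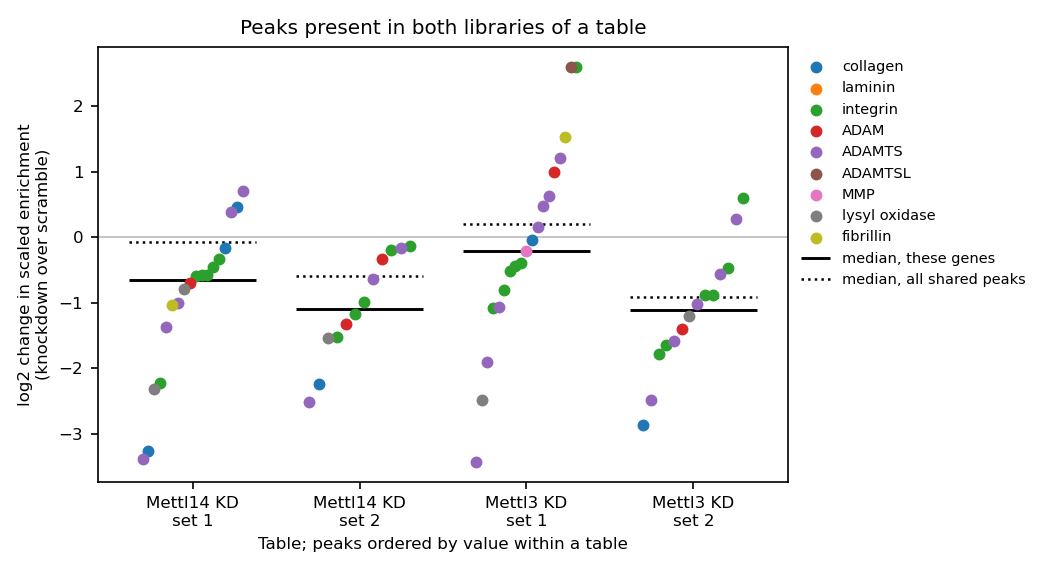
log2 change in scaled enrichment, knockdown over scramble (vertical axis), of each shared peak of the 36 genes in each of the 4 tables, coloured by family; solid lines are their medians and dotted lines the medians over all shared peaks. The solid line lies below the dotted one in each table, at -0.65, -1.09, -0.21 and -1.11, and points in set 1 spread from -3.43 to 2.60.

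A gene was called lower in a table where all its peaks were lost or less enriched, and higher where all were new or more enriched. After Mettl14 knockdown 25 of 33 listed genes were lower in set 1 (57.8% of all listed genes were) and 20 of 22 in set 2 (70.5% of all). After Mettl3 knockdown 22 of 30 were lower in set 1 (49.6% of all) and 15 of 21 in set 2 (75.6% of all). Genes that were higher numbered 6 in set 1 and 2 in set 2 after Mettl14 knockdown, where 27.4% and 19.8% of all genes were, and 6 and 3 after Mettl3 knockdown, where 34.7% and 16.0% were. Taking both sets, after Mettl14 knockdown 15 of the 20 genes listed in both sets were lower in both, against 41.7% of all genes listed in both. They were Adam17, Adam23, Adamts1, Adamts4, Adamts14, Col27a1, Col6a4, Itga1, Itga3, Itga5, Itga6, Itga9, Itgb5, Loxl1 and Mmp28. Col5a1 alone was higher in both, where 7.60% of all genes were. After Mettl3 knockdown 11 of 19 were lower in both sets, against 33.5% of all genes, and Fbn2 and Itga9 were higher in both, where 5.82% of all genes were. Of 18 genes listed throughout, 10 were lower in every table, against 25% of all, and they include Itga3, Itga5, Itga6, Itgb5, Adam17, Adam23, Adamts1, Col27a1 and Mmp28 beside the Pelo stretch listed as Itga1. Without the scaling constants the genes lower in both sets numbered 12 for Mettl14 and 10 for Mettl3. With the median over all shared peaks set to 0 they numbered 12 and 8. The shares of all genes under these scalings are not given here, and 41.7% and 33.5% belong to the scaled calls. Among the genes that turned in set 2 were Itga6 and Itgb5 (values below). The 2 tables of a set share their scramble library, so these calls are not independent.

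At the level of sites, 21 were present in both scramble libraries. Of these, 9 were also present in all 4 knockdown libraries, with a median scramble width of 951 nt, against 531 nt for the 10 sites present in 1 to 3 knockdown libraries. Another 2, Col6a4 site 1 and Adam23 site 1, were in no knockdown library, with a median of 669 nt. Counted as peaks of scramble set 1, the 2 were 9.09% of 22, against 9.80% of all peaks present in both scramble libraries, and the 9 sites kept in all 4 tables were 40.9%, against 51.8% of all. A further 20 sites were in 1 scramble library only, 12 of them in no knockdown library, and 9 were in knockdown libraries only. The scramble libraries themselves differed: at 4 of the 21 sites (Adamts1, Col27a1, Loxl1 and Mmp28) their enrichments were more than 3-fold apart. Some sites are described below as having all knockdown enrichments below both scramble ones. How many of all peaks separate in this way is not given here. By the authors' scaled folds, lower values were the majority over all shared peaks in each table but Mettl3 set 1. The enrichments given per site are unscaled. Without the constants the median log2 change over all shared peaks was 0.07 and -0.24 for Mettl14 and 0.20 and -0.20 for Mettl3.

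**Figure D4:**
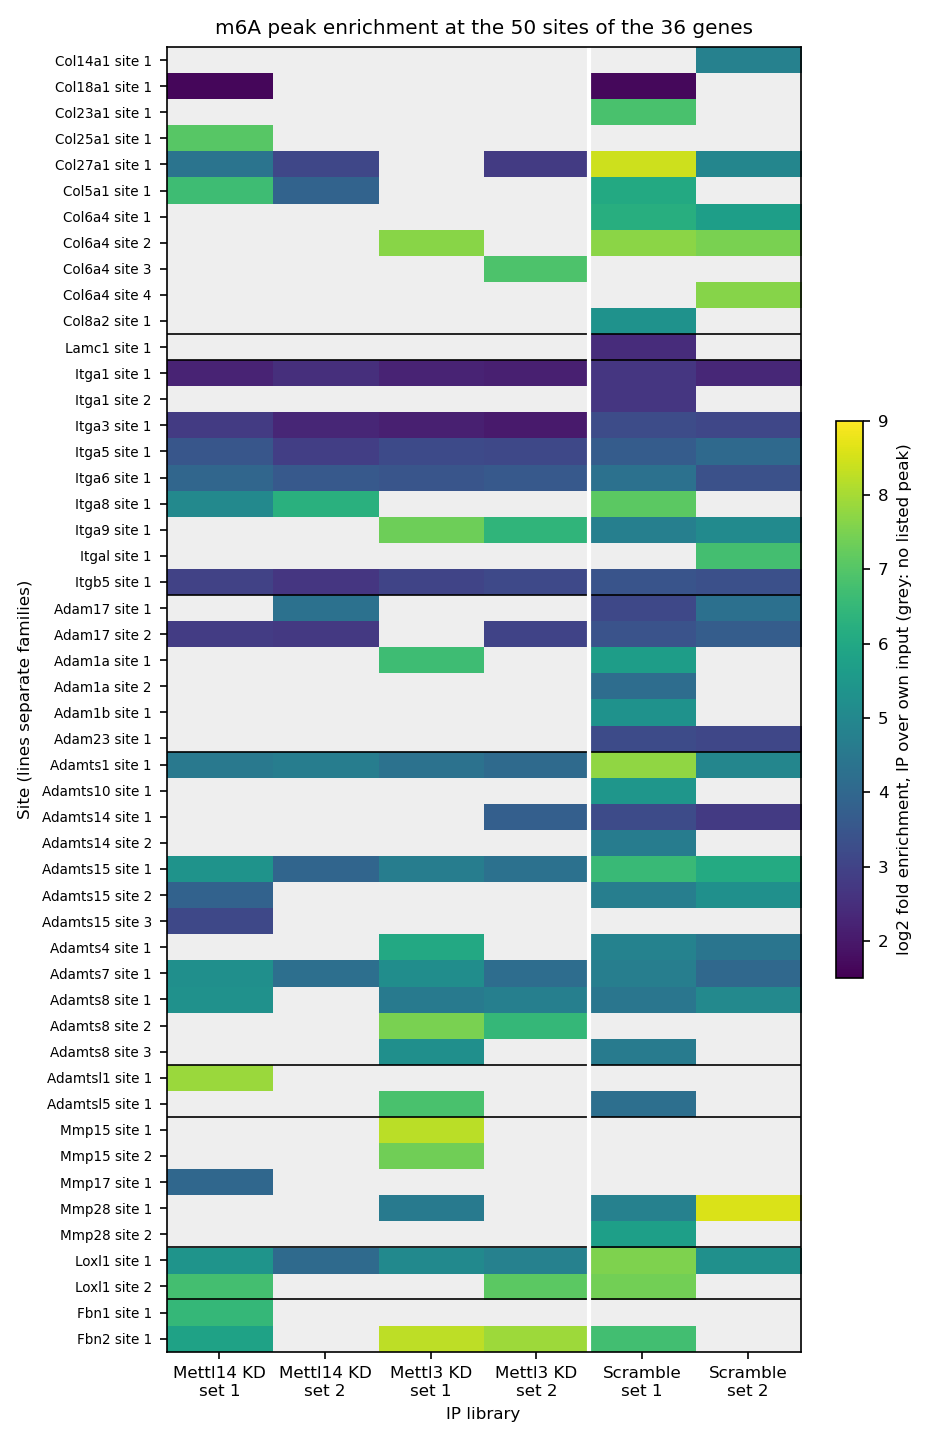
log2 fold enrichment of IP over its own control (colour) at the 50 sites (rows, grouped by family) in the 6 IP libraries (columns); grey marks sites with no listed peak. The integrin rows Itga1, Itga3, Itga5, Itga6 and Itgb5 are filled across all 6 libraries, while 5 of the 11 collagen rows and 3 of the 6 ADAM rows are empty in every knockdown library.

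The collagens are the fibre and sheet proteins of the matrix. Their 8 genes had 11 sites, none of them in all 6 libraries, and 4 and 2 peaks were listed after Mettl14 knockdown and 1 and 2 after Mettl3 knockdown, against 8 and 5 in scramble libraries. Of the scramble peaks, 5 of 8 and 4 of 5 were lost after Mettl14 knockdown and 7 of 8 and 4 of 5 after Mettl3 knockdown, against 38.9%, 41.2%, 40.9% and 36.6% of all gene-assigned peaks in the same tables.

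Col27a1 encodes the chain of a fibrillar collagen of cartilage. Its single site, in coding sequence, had an enrichment of 21.1 and 8.47 after Mettl14 knockdown, no peak in set 1 and 7.03 in set 2 after Mettl3 knockdown, and 344 at the higher of 2 peaks in set 1 and 31.0 in set 2 of scramble. The knockdown values all lay below both scramble values. In the authors' deposited tables the log2 change was -3.26 in set 1, against a scramble peak of 183-fold, and -2.24 in set 2 for Mettl14, and -2.86 in set 2 for Mettl3. The set 1 comparison set 38 tags over 464 nt after Mettl14 knockdown against 23 tags over 254 nt in scramble, so the knockdown peak had more reads over a wider stretch and a lower ratio.

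Col6a4, a chain of collagen VI microfibrils, had 4 sites, the most of any of these genes. Site 1, with the GGACT printed above, had no peak in any knockdown library, against an enrichment of 74.0 with 33 tags and 51.9 with 37 tags in scramble. Site 2 was listed in Mettl3 knockdown set 1 alone among the knockdown libraries, at 202 with 12 tags, against 208 with 28 tags and 178 with 19 tags in scramble. The other sites were a peak of 4 tags in Mettl3 knockdown set 2 and a peak of 15 tags in scramble set 2.

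Col5a1, which encodes a chain that starts and limits the width of collagen fibrils and was on the list of feeder fibroblast markers, was the collagen that was higher after Mettl14 knockdown in both sets. Its site at the stop codon had an enrichment of 101 with 41 tags and 14.8 with 35 tags after Mettl14 knockdown, no peak after Mettl3 knockdown, and 67.0 with 21 tags in set 1 and no peak in set 2 of scramble. The authors' deposited table gave a log2 change of 0.46 in set 1, and the set 2 peak was new. Of the 16 feeder markers 5 had a listed peak, with 3 and 3 peaks after Mettl14 knockdown, 2 and 0 after Mettl3 knockdown, and 5 and 2 in scramble. Pdgfrb and Twist1, also on that list, were lower in both Mettl14 sets, and Twist1 in both Mettl3 sets. The defining feeder genes Col1a1, Col1a2 and Col3a1 had no listed peak in any library, which says nothing of their expression. In bulk RNA fewer cells of a type and less RNA per cell cannot be told apart, and the part of feeder RNA in these peaks was not tested.

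The other collagens were seen in few libraries. Col18a1, whose product is a basement membrane collagen, had an enrichment of 3.12 with 232 tags in Mettl14 knockdown set 1, no peak in the other knockdown libraries, and 3.18 with 319 tags in scramble set 1. Col8a2, Col23a1 and Col14a1 had 1 peak each, of 14 to 27 tags, in 1 scramble library and none in knockdown libraries, and Col25a1 had a peak of 4 tags in Mettl14 knockdown set 1 alone.

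Laminin and fibrillin genes gave 3 sites. Lamc1, the γ chain shared by most laminins of the early embryo, was the sole listed gene of 11 laminin genes. Its 3′ UTR peak was in no knockdown library, against an enrichment of 5.50 with 209 tags in scramble set 1 and no peak in scramble set 2. Fbn2, a fibrillin of embryonic microfibrils, had a peak at its stop codon with an enrichment of 56.8 with 24 tags in set 1 after Mettl14 knockdown, and 303 with 13 tags and 241 with 10 tags after Mettl3 knockdown, against 105 in scramble set 1 and no peak in scramble set 2. The high ratios of Fbn2 rest on 10 to 24 tags. Fbn1 had a single peak of 8 tags in Mettl14 knockdown set 1.

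Loxl1, an enzyme that crosslinks elastin, was the 1 lysyl oxidase of 6 with a listed peak. Its coding site was in all 6 libraries, with an enrichment of 41.5 and 17.1 after Mettl14 knockdown and 33.4 and 27.7 after Mettl3 knockdown, against 188 and 38.7 in scramble. Within each set both knockdowns lay below scramble, but Mettl14 knockdown set 1 lay above scramble set 2. In the authors' deposited tables the log2 change was -2.32 and -1.54 for Mettl14 and -2.49 and -1.20 for Mettl3. A short second site in the 5′ UTR, of 10 to 12 tags, was present in Mettl14 knockdown set 1, Mettl3 knockdown set 2 and scramble set 1.

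The integrins were the family with the most sites present in all libraries. Of their 9 sites 5 were in all 6 libraries, against 3 of 12 ADAMTS sites, 1 of 2 Loxl1 sites and none in the other families. Both Pelo stretches listed as Itga1 are among the 9, and 1 of them is among the 5. Over all genes, 51.8% of the peaks present in both scramble libraries were kept in all 4 tables. That share leaves out sites seen in 1 scramble library or none, which the 9 include. Each knockdown library held 6 integrin peaks, against 8 and 7 in scramble. Shared peaks were lower in 6 of 6 and 5 of 5 cases after Mettl14 knockdown and in 5 of 6 and 5 of 6 after Mettl3 knockdown, Itga9 being the exception in both Mettl3 tables. Over all shared peaks 55.5%, 86.2%, 35.7% and 93.9% were lower in the same tables. The set 2 counts depend on the scaling: without the constant 3 of 5 were lower for Mettl14 and 4 of 6 for Mettl3. With the median over all shared peaks set to 0 they were 3 of 5 and 2 of 6. The shares of all shared peaks under these scalings are not given here. The 4 exonic sites in all libraries, in Itga3, Itga5, Itga6 and Itgb5, all lay in 3′ UTRs and had 90 to 396 tags in the knockdown libraries.

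Itga5 encodes the α chain of the main fibronectin receptor. Its site had an enrichment of 11.4 and 7.41 after Mettl14 knockdown and 9.05 and 8.78 after Mettl3 knockdown, against 12.9 and 16.6 in scramble. All 4 knockdown values lay below both scramble values. The authors' deposited tables gave log2 changes of -0.33 and -1.53 for Mettl14 and -0.51 and -1.64 for Mettl3.

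Itga3, the α chain of a laminin receptor, had an enrichment of 6.93 and 4.90 after Mettl14 knockdown and 4.44 and 4.09 after Mettl3 knockdown, against 9.41 and 8.62 in scramble. The groups did not overlap, a pattern whose share over all peaks is not given here. The peaks spanned 1291 to 1419 nt in the knockdowns and 1250 and 1310 nt in scramble. In the authors' deposited tables the log2 change was -0.58 and -1.18 for Mettl14 and -1.08 and -1.79 for Mettl3.

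Itgb5, a β chain that pairs with αV to bind vitronectin, had an enrichment of 7.94 and 6.48 after Mettl14 knockdown and 8.24 and 8.90 after Mettl3 knockdown, against 10.8 and 10.0 in scramble. Here too all knockdown values were below both scramble values. In the authors' deposited tables its log2 changes ran from -0.39 to -0.99. The Mettl3 set 2 value of -0.89 was -0.17 without the scaling constant and 0.03 with the median over all shared peaks set to 0.

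Itga6, the α chain of the laminin receptor used as a stem cell surface marker, had an enrichment of 15.8 and 12.0 after Mettl14 knockdown and 11.2 and 12.1 after Mettl3 knockdown, against 19.7 and 10.2 in scramble. The groups overlapped, since scramble set 2 was the lowest library. The authors' deposited tables gave -0.46 and -0.13 for Mettl14 and -0.81 and -0.47 for Mettl3 as log2 changes, and without the scaling constant those of set 2 were 0.23 and 0.24. The Pelo stretch listed as Itga1 had an enrichment of 4.74 and 5.71 after Mettl14 knockdown and 4.71 and 4.47 after Mettl3 knockdown, against 6.41 and 5.06 in scramble, and its groups overlapped as well. Its Mettl14 set 2 log2 change of -0.19 in the authors' deposited table was 0.17 without the constant. A second such stretch had an enrichment of 6.40 in scramble set 1 and no peak elsewhere.

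Itga9, the α chain of a receptor for tenascin, differed between the knockdowns. Its 3′ UTR site had no peak in either Mettl14 knockdown library, while its enrichment was 162 and 84.2 after Mettl3 knockdown, against 26.7 and 33.8 in scramble. The authors' deposited tables gave log2 changes of 2.60 and 0.60 for Mettl3. The Mettl3 knockdown peaks held 26 tags over 280 nt and 15 tags over 231 nt, against 51 tags over 499 nt and 33 tags over 286 nt in scramble, so a higher ratio stood beside fewer reads over a narrower stretch. The difference between the knockdowns was not tested.

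Itga8, which pairs with β1 as a receptor for nephronectin, had an enrichment of 32.8 with 34 tags and 76.5 with 38 tags after Mettl14 knockdown, no peak after Mettl3 knockdown, and 139 with 9 tags in set 1 and no peak in set 2 of scramble. It was lower in set 1 (log2 change -2.22 in the authors' deposited table) and new in set 2, so the sets differed in direction. Itgal, the α chain of a leukocyte integrin, had 1 peak of 14 tags in scramble set 2 and none in the knockdown libraries.

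The ADAM genes encode membrane proteases and relatives without protease activity. They had 1 and 2 peaks after Mettl14 knockdown and 1 and 1 after Mettl3 knockdown, against 6 and 3 in scramble. Adam23, a member without protease activity that takes part in adhesion, was the 1 gene with peaks in both scramble libraries that lost all of them throughout. Its peak, in the 3′ UTR, had no counterpart after either knockdown, against an enrichment of 9.29 with 129 tags over 933 nt and 8.52 with 126 tags over 829 nt in scramble. The FDR of these scramble peaks was 8.83% and 9.62%, near the highest FDR that the tables list. Over all lost peaks of these genes the median was 28 to 36 tags, depending on the table.

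Adam17 is the sheddase that releases TNF and EGF receptor ligands. Its coding site had an enrichment of 7.17 and 6.70 after Mettl14 knockdown, and no peak in set 1 and 8.10 in set 2 after Mettl3 knockdown, against 10.6 and 13.0 in scramble. All 3 knockdown values lay below both scramble values, with log2 changes in the authors' deposited tables of -0.70 and -1.32 for Mettl14 and -1.40 in set 2 for Mettl3. Its 3′ UTR site was present in Mettl14 knockdown set 2 alone among the knockdown libraries, at 19.6 with 34 tags, against 8.80 with 50 tags and 19.2 with 68 tags in scramble. Its log2 change in the authors' deposited table was -0.34, and 0.03 without the scaling constant. Adam1a and Adam1b, neighbouring genes known for sperm proteins, had 3 peaks of 26 to 34 tags in scramble set 1, and 1 of these, in Adam1a, had a counterpart of 13 tags in Mettl3 knockdown set 1.

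The ADAMTS genes encode secreted proteases of proteoglycans and procollagens. They had 6 and 3 peaks after Mettl14 knockdown and 8 and 6 after Mettl3 knockdown, against 10 and 7 in scramble. Adamts1, which cleaves versican and aggrecan, had a coding site in all libraries, with an enrichment of 23.0 and 25.5 after Mettl14 knockdown and 20.01 and 17.0 after Mettl3 knockdown, against 217 and 31.0 in scramble. The knockdown values lay close together below both scramble values, while the scramble values were 6.99-fold apart. In the authors' deposited tables the log2 change was therefore large in set 1, at -3.38 for Mettl14 and -3.43 for Mettl3, and smaller in set 2, at -0.64 and -1.58.

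Adamts15, another protease of versican and aggrecan, had a wide site over its stop codon with an enrichment of 40.7 and 15.3 after Mettl14 knockdown and 25.5 and 19.8 after Mettl3 knockdown, against 95.2 and 67.8 in scramble. The groups did not overlap, and the knockdown peaks were wider, at 1213 to 1787 nt against 1156 and 1013 nt in scramble. In the authors' deposited tables its log2 changes were -1.37 and -2.51 for Mettl14 and -1.90 and -2.49 for Mettl3. Its coding site was present in Mettl14 knockdown set 1 at 14.5, against 26.3 and 38.7 in scramble, and a new peak of 42 tags lay in the 5′ UTR in that library alone.

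Adamts7, a protease of cartilage oligomeric matrix protein, had no common direction. Its coding site had an enrichment of 37.9 and 18.9 after Mettl14 knockdown and 36.1 at the higher of 2 peaks and 18.3 after Mettl3 knockdown, against 26.2 and 16.5 in scramble. The lower of the 2 Mettl3 set 1 peaks had 12.6. The scaled log2 change in the authors' deposited tables was 0.39 and -0.17 for Mettl14, and 0.47 and -1.06 for the 2 peaks in set 1 and -0.56 in set 2 for Mettl3. Without the scaling constant the set 2 values were 0.20 for Mettl14 and 0.15 for Mettl3.

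Adamts8, a protease expressed in lung and brain, had the only site that was new in both sets of a knockdown. This coding site had an enrichment of 181 with 21 tags and 90.0 with 16 tags after Mettl3 knockdown, and no peak in Mettl14 knockdown or scramble libraries. Just downstream lies Adamts8 site 3, which falls over the stop codon and was present in Mettl3 knockdown set 1 with 23 tags and in scramble set 1 with 35 tags. Adamts8 site 1 was in both scramble libraries and in 3 knockdown libraries, at 39.6 in set 1 and no peak in set 2 after Mettl14 knockdown and 24.3 and 26.7 after Mettl3 knockdown, against 21.9 and 32.8 in scramble.

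Adamts4, an aggrecanase, and Adamts14, which trims procollagen, were lost in both Mettl14 tables. Adamts4 had a peak in Mettl3 knockdown set 1 alone among the knockdown libraries, at 65.8 with 28 tags, against 28.4 with 50 tags and 21.2 with 43 tags in scramble. The stop codon site of Adamts14 had a peak in Mettl3 knockdown set 2 alone among the knockdown libraries, at 13.7 with 46 tags, against 9.37 with 173 tags and 6.91 with 156 tags in scramble. In both genes the 1 knockdown peak had fewer tags and a higher ratio than scramble. A further Adamts14 site, in coding sequence, had 24 tags in scramble set 1 and no knockdown peak. Adamts10 had 1 peak of 28 tags in scramble set 1 and none in the knockdown libraries. Of the ADAMTSL genes, which encode ADAMTS-like proteins without the protease domain, Adamtsl1 had a new peak of 12 tags in Mettl14 knockdown set 1, and Adamtsl5 had 12 tags in Mettl3 knockdown set 1, against 24 tags in scramble set 1.

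Matrix metalloproteinases had listed peaks in 3 of 22 genes. Mmp28, a secreted enzyme known from skin repair, had a 3′ UTR site that was lost in 3 of the 4 tables. It had no peak after Mettl14 knockdown and an enrichment of 24.2 with 19 tags in set 1 and no peak in set 2 after Mettl3 knockdown, against 28.0 with 95 tags and 379 with 69 tags in scramble. The log2 change in the authors' deposited table was -0.21 in Mettl3 set 1. A second site, at the stop codon, had 12 tags in scramble set 1 and no knockdown peak. The membrane-bound enzymes Mmp15 and Mmp17 had peaks in knockdown libraries only. Mmp15 had 2 peaks, of 13 and 10 tags, in Mettl3 knockdown set 1, and Mmp17 had 1 of 33 tags in Mettl14 knockdown set 1.

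Related genes outside the name patterns were counted on 5 lists, and their calls are given by the authors' scaling only. Of all genes listed in both sets, 41.7% were lower in both for Mettl14 and 33.5% for Mettl3, so lower calls were common. Of 24 integrin adaptors and kinases 11 had a listed peak, and the same 4 were lower in both sets of each knockdown. They were the scaffold Bcar1, the kinase Src, the collagen receptor kinase Ddr1 and the proteoglycan Sdc1. The 11 include genes listed in 1 set only, so 4 of 11 is not on the base of the 41.7% and 33.5%. The same holds for the other lists. Ddr1 had, in the authors' deposited tables, log2 changes of -1.77 in Mettl14 set 1, where its set 2 peak was lost, and of -1.59 and -2.33 for Mettl3. After Mettl14 knockdown Tns3 and Sdc2 were higher in both sets, where 7.60% of all genes listed in both were. The 2 Tns3 peaks had log2 changes of only 0.11 and 0.16 in set 2. The Sdc2 peaks were new, with 5 tags in set 1 and 34 in set 2. Of 14 activators, inhibitors and relatives of metalloproteinases 4 were listed, and Furin, which activates ADAM, ADAMTS and membrane-bound MMP proenzymes, and Rhbdf2, a trafficking partner of ADAM17, were lower in both sets of each knockdown. For Furin the authors' deposited tables gave log2 changes of -0.90 and -0.84 for Mettl14 and -0.37 and -1.42 for Mettl3. For Rhbdf2 the Mettl3 set 2 value was -0.90, beside a median over all shared peaks of -0.91.

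Of 24 basement membrane and matrix glycoprotein genes 7 were listed. Hspg2, the perlecan gene, was lower in both sets of each knockdown. Its log2 changes in the authors' deposited tables were -0.61 and -0.51 for Mettl14 and -0.34 and -1.13 for Mettl3. The Mettl14 set 2 value lay above the median over all shared peaks, -0.60. Dag1 was lower in both Mettl14 sets and Vcan in both Mettl3 sets, while Tnc was higher in both Mettl14 sets. The Dag1 peak was lost in Mettl14 set 2, but in set 1 it had 3.37 against 3.48 in scramble, a small difference. The Tnc peaks were new, with 11 tags in set 1 and 22 in set 2. Of 18 genes of collagen folding and processing 2 were listed, and the crosslinking enzyme Tgm2 was called lower in both sets of each knockdown. Its peak was lost except in Mettl3 set 1, where the log2 change was -0.01, almost no change. Of 14 elastic fibre and growth factor latency genes 4 were listed, and none was lower or higher in both sets of a knockdown. Among 12 embryonic stem cell markers Sox2, Klf4, Esrrb and Sall4 had peaks. These peaks numbered 5 and 3 after Mettl14 knockdown and 3 and 5 after Mettl3 knockdown, against 3 and 3 in scramble. Klf4 alone was called higher in both sets of each knockdown. Of all genes listed in both sets, 7.60% had that call for Mettl14 and 5.82% for Mettl3. In the authors' deposited tables the Sox2 log2 changes were 0.59 and -0.10 for Mettl14 and 0.70 and -0.13 for Mettl3. Those of Sall4 were 0.13 and -0.18 for Mettl14 and 0.30 and -0.40 for Mettl3, set 1 first in each pair. The Esrrb peaks were new, in Mettl14 set 1 and Mettl3 set 2. Markers of extraembryonic endoderm, cells known to secrete laminin and basement membrane, had 2 and 3 peaks after Mettl14 knockdown and 4 and 2 after Mettl3 knockdown, against 8 and 2 in scramble, with 7 of 13 genes listed. Of the endoderm markers Sox7 alone was lower in both sets of each knockdown, and none was higher in both. The part of such cells in the matrix results was not tested.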

How the data were processed

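Peaks in 4 tables were analysed, each setting 1 knockdown IP library against 1 scramble IP library. Per the submitters' processing notes, the tools were Picard 1.74, SAMtools 0.1.18, TopHat2 2.0.6, Bowtie 0.12.7, cutadapt 1.1 and CASAVA 1.8.2, and the genome build was mm10. Each deposited row is a peak with a MACS name, a tag count, a peak score, an FDR in percent (at most 9.99) and a fold enrichment, a ratio of the IP to that library's control, per the file headers. The deposited signed fold score compares scaled enrichments of knockdown and scramble, and it was turned into log2. Scramble enrichments of shared peaks were solved from it. Scramble tag counts and FDR of peaks shared in both tables of a set are not in the tables.

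Fates were called by overlap of at least 1 nt on the same strand, which matched the authors' marking of new, shared and lost peaks in each table with 0 disagreements, and were tested on simulated data. Sites were placed on GENCODE M21 transcripts. Python 3.11.15, pandas 2.3.3, numpy 2.4.6 and statsmodels 0.14.6 were used. Peaks per library were compared by exact permutation. Depth per library is unknown, so precision is known only for the counts of peaks. Members and lists were chosen with earlier results of these data known. Genes were named where they were lost in all 4 tables, had the most negative or positive mean log2 change over sets, were new in both sets, had the most peaks, differed between knockdowns or led their family in scramble enrichment. The other members were added so that each of the 36 is accounted for, and the sequences in 3′ UTRs were chosen after values were seen. Alternatives were other overlaps, scalings, subsets and a replicate block.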

Additional observations from a re-analysis of the deposited data

Results flagged for a closer look

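Itga9 differed between the knockdowns in every library. Its 3′ UTR peak was lost in both Mettl14 tables, while in the authors' deposited tables its log2 change after Mettl3 knockdown was 2.60 in set 1 and 0.60 in set 2. This difference was not tested. Both Mettl3 knockdown peaks had fewer tags than the scramble peak they were set against.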

How the results depend on the processing

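The shares of lost peaks stayed within their intervals under every alternative run. With the scaling constant removed the median log2 change in set 2 was -0.72 for Mettl14 and -0.39 for Mettl3, and with the median over all shared peaks set to 0 it was -0.50 and -0.20. Genes higher in both Mettl14 sets numbered 2 under each of these scalings, for which shares of all genes are not given here. Under leave-one-out, using 1 set alone, genes lower numbered 20 to 25 for Mettl14 and 15 to 22 for Mettl3, genes higher 2 to 6 and 3 to 6, and, of the 22 peaks found in both scramble libraries, 5 to 6 were lost in both tables of a set. Reversals, without the constant and with the median at 0, were in Mettl14 set 2 Adam17 site 1 (0.03, 0.26), Adamts7 (0.20, 0.43), Itga1 (0.17, 0.40) and Itga6 (0.23, 0.46), and in Mettl3 set 2 Adamts7 (0.15, 0.35) and Itga6 (0.24, 0.44); with the median at 0 alone, Itga1 (0.02) and Itgb5 (0.03) in Mettl3 set 2 and Adamts8 site 1 (-0.07) in Mettl3 set 1 reversed. With a replicate block, taking differences within sets, the differences in peaks per library were -13, -11.5 and -12.25, and p was 0.5 in each exact test, the smallest it allows; the sets are tables that share a scramble library, and no source ties them to replicate numbers. Chosen after seeing the data, limiting knockdown peaks to an FDR of 5% gave lost shares of 64.1% and 66.7% for Mettl14 and 56.4% and 45.8% for Mettl3. Dropping knockdown peaks can only raise a lost share. The share over all peaks at this limit is not given here, and the shares over all peaks in the Results are without it. Leaving out Itga1, also chosen after seeing the data, gave 54.1%, 52.2%, 54.1% and 43.5%. An FDR limit on both sides and a minimum of 20 tags were not run, since scramble FDR and tags of peaks shared in both tables are not in the tables. Depth per library is unknown.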
